A study of Mus musculus with 49 samples.

Results

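The hippocampus of mice low in endophilin A1 and A3 was compared with that of separate wild-type mice at postnatal day 0, from the RNA of 16 samples out of 49 in the series. The first group (KOWTKO, n = 8) was labelled as the littermate controls of endophilin A1A2A3 triple knockouts (TKO, n = 9), and the other (WT-TKO, n = 8) as wild-type controls. The members were taken by their labels alone. Both groups came from newborn, untreated mice, and no strain, sex, age in hours or litter was given. The labels do not say which alleles the KOWTKO mice carried, nor that each sample is its own animal, so the p-values rest on the spread among samples, part of which may be technical. Low expression of A1 and A3 and the colony a mouse came from cannot be told apart here, because every KOWTKO library is low in both genes and no WT-TKO library is.

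Endophilin A proteins bend membranes with a BAR domain and recruit dynamin and synaptojanin through an SH3 domain, which drives fission and uncoating of clathrin-coated vesicles at synapses and elsewhere. Endophilin A1 (Sh3gl2) is the main form in neurons, A2 (Sh3gl1) is made in most tissues, and A3 (Sh3gl3) is made mainly in brain and testis. The hippocampus at birth holds young pyramidal neurons, dividing granule-cell precursors in the dentate gyrus, radial glia, invading microglia and few myelinating cells, and it lies beside the choroid plexus and the meninges.

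Reads on genes came to 16.2 to 31.2 M (mega) per KOWTKO library (median 24.5) and 13.1 to 35.0 M per WT-TKO library (median 18.4). Levels are given as CPM, counts per M reads on genes after scaling of the libraries by TMM, and differences as log2 fold changes of KOWTKO over WT-TKO with their standard error (SE). Genes with a Benjamini-Hochberg adjusted p under 0.05 in edgeR's quasi-likelihood test were called. The granule-cell factor Prox1 and the pyramidal-neuron factor Neurod6 were present in all 16 libraries. Neither was called (Prox1 log2 fold change -0.09 ± 0.13, adjusted p = 0.661, and Neurod6 0.02 ± 0.07, adjusted p = 0.876). 6 libraries stood apart. WT-TKO replicates 5 and 6 held 0.143% and 0.142% of their reads on pseudogenes, against 0.0992% to 0.118% in KOWTKO libraries and 0.0715% to 0.0941% in the other WT-TKO libraries. WT-TKO replicate 7 was rich in choroid plexus RNA, replicate 8 in myelin RNA, KOWTKO replicate 3 was low in Sh3gl1, and KOWTKO replicate 7 had the highest share of reads outside genes (15.1%). By Xist and Ddx3y, 3 KOWTKO libraries read as female and 5 as male, and 4 WT-TKO libraries as female and 3 as male. WT-TKO replicate 8 held both genes (206 CPM of Xist and 47.9 CPM of Ddx3y). For each gene list the counts of called genes are also given without these 6 libraries.

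Sh3gl2 and Sh3gl3 were far lower in KOWTKO than in WT-TKO, and Sh3gl1 was not called. Sh3gl2 (ENSMUSG00000028488, chromosome 4, 85205126 to 85639195 in mm10, plus strand) had 10.9, 19.8 and 26.6 CPM (lowest, median and highest library) in KOWTKO, against 163, 202 and 239 CPM in WT-TKO. No KOWTKO library came near a WT-TKO library (log2 fold change -3.45 ± 0.22, adjusted p = 2.92e-10), and the KOWTKO mean was 9.23% of the WT-TKO mean. Sh3gl3 (ENSMUSG00000030638, chromosome 7, 82173840 to 82307419) had 0.0451, 0.229 and 0.497 CPM (lowest, median and highest library) in KOWTKO, against 55.1, 60.3 and 65.4 CPM in WT-TKO, a KOWTKO mean of 0.417% of the WT-TKO mean (log2 fold change -7.83 ± 0.17, adjusted p = 7.07e-24). Sh3gl3 shares 398 exon bases with Gm45089, which the kit cannot separate by strand. Sh3gl1 (ENSMUSG00000003200, chromosome 17, 56016750 to 56036635) had 35.0, 73.7 and 85.2 CPM (lowest, median and highest library) in KOWTKO, against 64.6, 68.1 and 78.2 CPM in WT-TKO (log2 fold change -0.00 ± 0.12, adjusted p = 0.989). Per kilobase of exon, median levels were 3.02 CPM for Sh3gl2 in KOWTKO and 30.8 in WT-TKO, 0.0530 and 14.0 for Sh3gl3, and 14.7 and 13.6 for Sh3gl1. On that scale Sh3gl1 was the most abundant of the 3 genes in KOWTKO and Sh3gl2 in WT-TKO. TKO medians, for scale, were 22.3 CPM of Sh3gl2, 0.242 of Sh3gl3 and 0.808 of Sh3gl1.

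KOWTKO libraries varied among themselves at Sh3gl2 and at a gene that overlaps it. Replicates 1, 4 and 6 had 10.9 to 12.1 CPM of Sh3gl2 and 18.5 to 21.6 CPM of Adamtsl1, which encodes a secreted matrix protein and whose annotated span overlaps the end of Sh3gl2 on the same strand, with no exon base in common. The other 5 had 19.1 to 26.6 CPM of Sh3gl2 and 6.41 to 12.3 CPM of Adamtsl1. WT-TKO libraries had 13.1 to 22.7 CPM of Adamtsl1, a range that holds replicates 1, 4 and 6 and none of the other 5. Adamtsl1 as a whole was not called (log2 fold change -0.37 ± 0.25, adjusted p = 0.304). KOWTKO replicate 3 stood apart at Sh3gl1, with 35.0 CPM against 64.6 CPM in the lowest WT-TKO library. In the same library Mpnd, which shares 41 exon bases with Sh3gl1, stood at 52.1 CPM and Stap2, an adaptor gene close by, at 11.8 CPM. TKO medians were 19.1 CPM of Mpnd and 28.2 CPM of Stap2, while WT-TKO libraries reached 86.9 to 105 CPM of Mpnd and 1.87 to 3.88 CPM of Stap2. The level of all 3 genes in that library thus lay between the TKO median and the WT-TKO range.

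**Figure D1:**
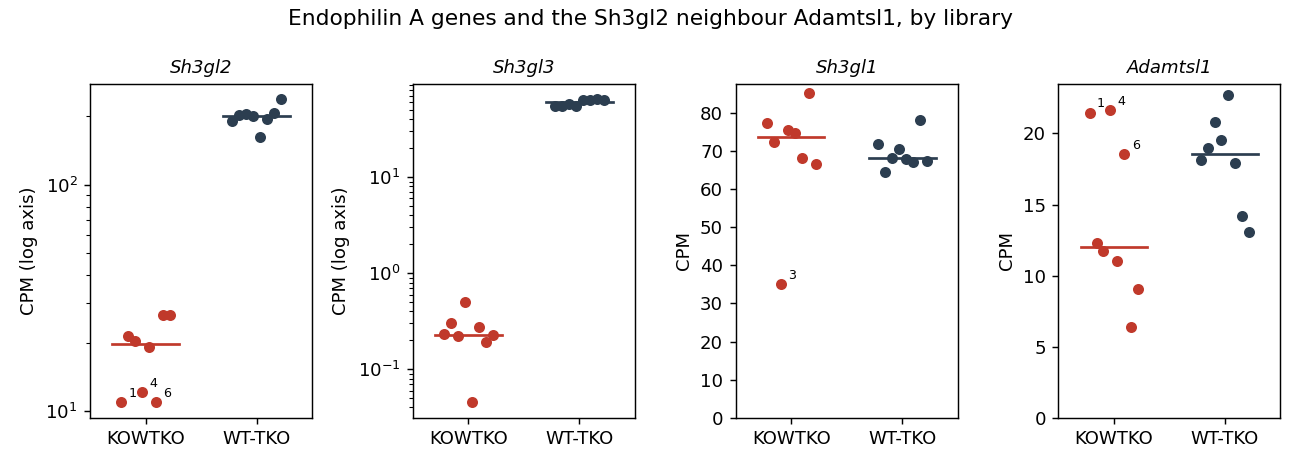
CPM of Sh3gl2 and Sh3gl3 (log axis) and of Sh3gl1 and Adamtsl1 (linear axis) in each KOWTKO and WT-TKO library, with bars at the median. KOWTKO replicates 1, 4 and 6 (10.9 to 12.1 CPM of Sh3gl2) and replicate 3 (35.0 CPM of Sh3gl1) are numbered.

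Of 15715 genes tested, 3288 were called (20.9%), of which 1645 were higher (10.5% of those tested) and 1643 lower in KOWTKO (10.5%). Most differences were small: the median size of a called difference was 0.31 on the log2 scale, a 1.24-fold change. Only 194 called genes differed at least 2-fold (1.23% of those tested), 40 of them higher and 154 lower. In 362 genes (2.3%) all 8 libraries of one group lay outside the range of the other, 218 higher (1.39%) and 144 lower (0.916%), and 361 of these were called. The median log2 fold change of all genes tested was -0.01. When each library was left out in turn, 2050 calls held in all 16 fits, 1069 higher and 981 lower, and the share of all genes called ran from 7.85% to 12.8% higher and from 7.91% to 12.3% lower, both highest without WT-TKO replicate 7. Without the 6 libraries that stood apart, 3909 of 16000 genes were called (24.4%; 13.6% higher and 10.8% lower), and 2529 (76.9%) of the 3288 were among them.

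The largest rises among genes above about 2 CPM were mostly of processed pseudogenes and small RNAs. Rps13-ps1 and Rps15a-ps8, copies of ribosomal protein genes, had 6.17 to 13.4 and 6.17 to 12.9 CPM in 5 KOWTKO libraries, with at most 0.0795 CPM in the other 3. In WT-TKO they were at 0 in 5 and 6 libraries and reached 1.29 and 1.51 CPM at most (adjusted p = 0.00199 and 0.00339). Gm6166 had 58.7 to 82.2 CPM (median 71.1) in KOWTKO and 2.3 to 34.9 CPM (median 2.55) in WT-TKO (log2 fold change 2.62 ± 0.51, adjusted p = 0.00174), and only WT-TKO replicates 5 and 6 exceeded 4.08 CPM. Gm13410 had 3.02 to 7.31 CPM (median 4.4) in KOWTKO and 0.0502 to 1.63 CPM (median 0.139) in WT-TKO (log2 fold change 3.05 ± 0.60, adjusted p = 0.00174). Reads of such copies and of their near-identical parents may be split by the counting, so these levels are uncertain. Among the 283 pseudogenes tested, 40 were called (14.1%).

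Outside the pseudogenes, Ren1 and Piezo2 were among the 10 largest rises. Ren1, which encodes renin and is present in some mouse strains together with a near-identical second copy, had 1.83 to 3.91 CPM (median 2.71) in KOWTKO and 0.165 to 0.602 CPM (median 0.378) in WT-TKO. The groups did not overlap (log2 fold change 2.99 ± 0.22, adjusted p = 5.03e-10). Piezo2, a mechanically gated cation channel, had 3.76 to 11.0 CPM (median 7.95) in KOWTKO and 1.74 to 4.45 CPM (median 2.17) in WT-TKO (log2 fold change 1.74 ± 0.31, adjusted p = 0.000596). Rn7sk, Gm23935, Gm26917 and Scand1 completed the 10, each with 1 KOWTKO library far above the others or a call that did not hold without the 6 libraries. Rn7sk, the 7SK small nuclear RNA, reached 62.4 CPM in KOWTKO replicate 7 and was not called without it (log2 fold change 0.68, adjusted p = 0.338), nor without any one of WT-TKO replicates 2 to 6 (2.32 to 2.49, adjusted p = 0.0528 to 0.0597). Scand1, a SCAN-domain gene, was not called without KOWTKO replicate 1 (0.87, adjusted p = 0.101). Gm23935 and Gm26917 lost their calls without the 6 libraries (1.70 and 1.31).

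The largest falls, apart from Sh3gl3 and Sh3gl2, comprised genes high in 1 or a few wild-type libraries and genes that differed in all libraries. Rpl3-ps1, Tpm3-rs7, Vcp-rs and Rpsa-ps10 were high in WT-TKO replicates 5 and 6, or in replicate 5 alone for Rpsa-ps10. Tpm3-rs7, a copy of a tropomyosin gene, had 37.4 and 73.1 CPM in those libraries, against 1.11 to 1.45 CPM in KOWTKO and 0.983 to 1.61 CPM in the other 6 WT-TKO libraries. None of the 4 was called without replicates 5 and 6, where their log2 fold changes were -0.62, -0.03, 0.26 and 0.16 in the order named, and Rpsa-ps10 was not called without replicate 5 (0.12). Ttr, Ptgds and Cldn11, markers of choroid plexus, meninges and myelin, are described with those tissues.

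Ccl28 and a group of genes beside it on chromosome 13 differed in every library. Ccl28 (chromosome 13, a chemokine of mucosal epithelia) had 1.13, 1.42 and 2.12 CPM (lowest, median and highest library) in KOWTKO, against 6.91, 10.5 and 21.1 CPM in WT-TKO (log2 fold change -3.15 ± 0.43, adjusted p = 5.18e-05). 4833420G17Rik, an uncharacterised protein-coding gene in the same stretch, had 15.4, 19.1 and 28.8 CPM (lowest, median and highest library) in KOWTKO, against 68.5, 84.2 and 88.5 CPM in WT-TKO (log2 fold change -2.05 ± 0.11, adjusted p = 4.14e-13), the smallest adjusted p after that of Sh3gl3 among genes without overlap. Tmem267, a transmembrane protein gene that lies between them, had 1.59 to 2.40 CPM (median 1.95) in KOWTKO and 3.83 to 8.51 CPM (median 6.08) in WT-TKO (log2 fold change -1.61 ± 0.18, adjusted p = 2.4e-06). All 3 fell without overlap between the groups. Gm9752, which shares 524 exon bases with 4833420G17Rik, fell too (-1.62 ± 0.18), as did 3110070M22Rik (-1.39 ± 0.21), which shares 162 with Tmem267.

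Not every gene of that stretch was lower. Paip1, a translation factor gene, was not called (97.5 to 115 CPM in KOWTKO and 96.5 to 108 CPM in WT-TKO; log2 fold change 0.05 ± 0.04, adjusted p = 0.47), and neither was Hmgcs1 of cholesterol synthesis (0.18 ± 0.09, adjusted p = 0.153). Fgf10, a growth factor that acts on radial glia of the embryonic cortex, rose with 9.52, 10.2 and 14.8 CPM (lowest, median and highest library) in KOWTKO, against 5.02, 6.14 and 6.68 CPM in WT-TKO (log2 fold change 0.87 ± 0.10, adjusted p = 1.41e-06), again with no overlap. Across 370 windows of 5 Mb with at least 15 tested genes, the window at 115000001 to 120000000 of chromosome 13 had the highest share of genes without overlap, 6 of 18 (33.3%), against 2.3% over all genes. In the TKO libraries the medians were 1.71 CPM of Ccl28, 27.0 of 4833420G17Rik, 1.82 of Tmem267 and 8.10 of Fgf10. The window was picked after its values were seen.

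**Figure D2:**
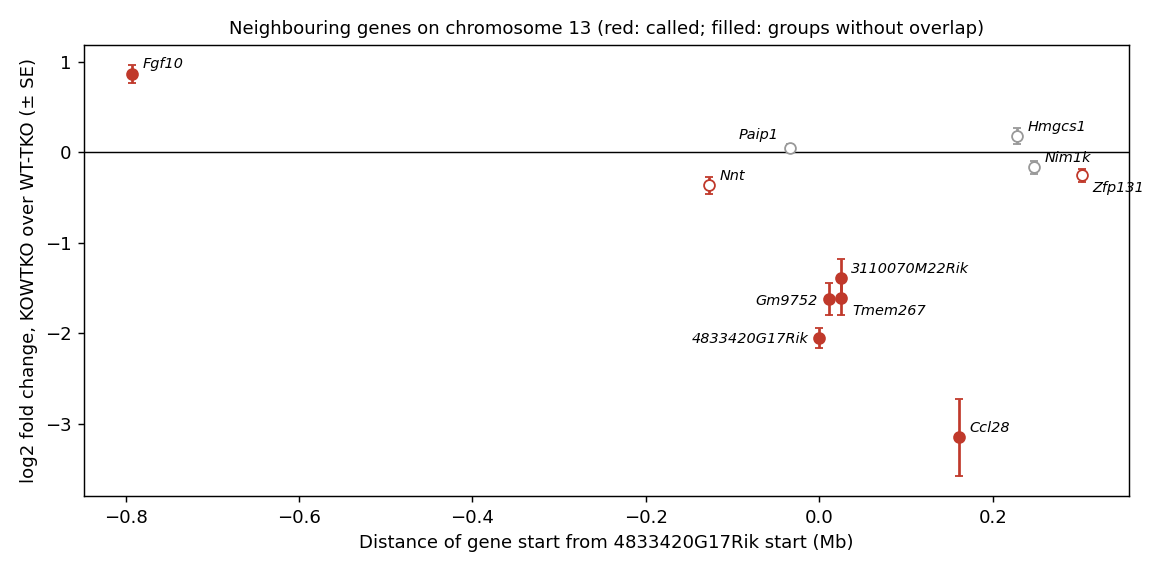
Log2 fold change of KOWTKO over WT-TKO with its SE for each tested gene by distance in Mb from the start of 4833420G17Rik on chromosome 13; red marks called genes and filled points genes whose groups do not overlap. 4833420G17Rik (-2.05) and Ccl28 (-3.15) lie low beside genes near 0 such as Paip1 (0.05), and Fgf10 (0.87) lies above.

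Other genes without overlap were spread over the genome. Those named here were picked after their values were seen, from genes that averaged at least 1 in log2 CPM and held their call when any 1 library was left out. Col15a1, a basement-membrane collagen of vessels, had 6.89, 7.78 and 8.81 CPM (lowest, median and highest library) in KOWTKO, against 17.2, 22.8 and 25.4 CPM in WT-TKO (log2 fold change -1.56 ± 0.15, adjusted p = 7.19e-08). Pdyn, which encodes the opioid precursor prodynorphin of granule cells, had 1.44 to 3.11 CPM (median 2.54) in KOWTKO and 4.05 to 11.7 CPM (median 5.39) in WT-TKO (log2 fold change -1.32 ± 0.20, adjusted p = 9.97e-05). Lrrc18, a leucine-rich repeat gene known from testis, rose with 1.61 to 4.44 CPM (median 3.62) in KOWTKO and 0.756 to 1.36 CPM (median 0.983) in WT-TKO (log2 fold change 1.68 ± 0.21, adjusted p = 8.39e-06). Each of the 3 separated all KOWTKO from all WT-TKO libraries.

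Polh, the DNA polymerase that copies past ultraviolet damage, had 5.32 to 6.77 CPM (median 5.96) in KOWTKO and 9.0 to 12.6 CPM (median 11.2) in WT-TKO (log2 fold change -0.87 ± 0.10, adjusted p = 3.66e-06). Ncf1, a subunit of the phagocyte NADPH oxidase, fell (-0.94 ± 0.15), and shares 408 exon bases with Gtf2ird2. Falls of similar size were seen in Catsperg1 (-0.98 ± 0.18), a subunit of the sperm calcium channel, Acrbp (-0.97 ± 0.17), which binds proacrosin in sperm, and Pabpc1l (-0.91 ± 0.20), a poly(A)-binding protein of oocytes. Gm27032 fell (-1.06 ± 0.22) and Gm6768 rose (1.66 ± 0.35).

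**Figure D3:**
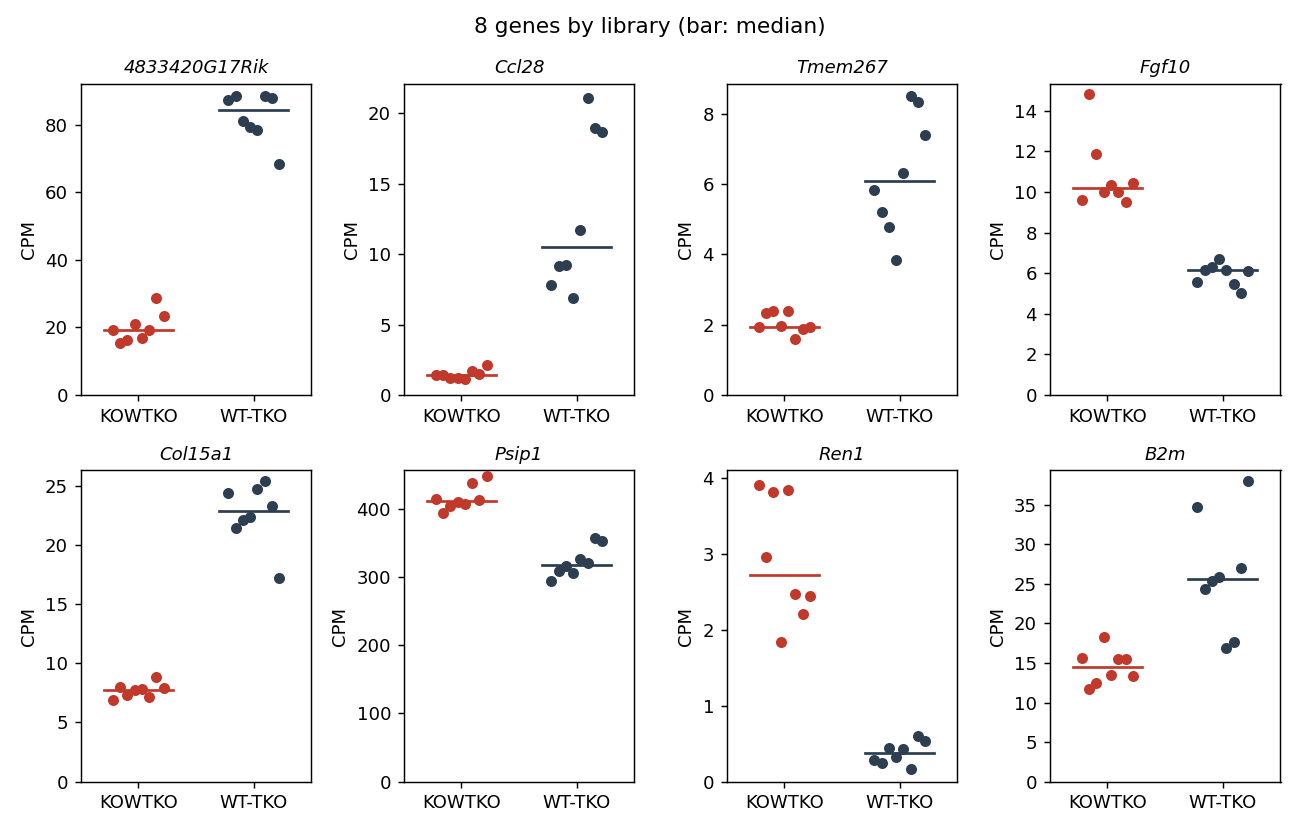
CPM of 8 genes in each KOWTKO and WT-TKO library, with bars at the median. The groups do not overlap in 4833420G17Rik, Ccl28, Tmem267, Fgf10, Col15a1, Psip1 and Ren1, while in B2m the highest KOWTKO library (18.3 CPM) lies above the lowest WT-TKO library (16.9 CPM).

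The share of genes called was higher around Sh3gl2 than on the rest of its chromosome. Within 2 Mb of Sh3gl2, 9 of 14 genes were called (64.3%), within 5 Mb 13 of 28 (46.4%) and within 20 Mb 30 of 97 (30.9%), against 212 of 962 on the rest of chromosome 4 beyond 5 Mb (22%). Around Sh3gl3, 20 of 84 genes within 5 Mb were called (23.8%), against 216 of 1086 on the rest of chromosome 7 (19.9%). Around Sh3gl1, which was not low, they were 18 of 67 (26.9%), against 138 of 674 on the rest of chromosome 17 (20.5%). Within 5 Mb of Sh3gl2 or Sh3gl3 together, 33 of 112 genes were called (29.5%, 95% Wilson interval 21.8 to 38.5), and the share was 21.4% without WT-TKO replicate 2 or without replicate 4. Neighbouring genes are not independent, and no test of these shares was made.

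Psip1, a chromatin-bound transcriptional coactivator 1.72 Mb from Sh3gl2, had 394, 411 and 448 CPM (lowest, median and highest library) in KOWTKO, against 293, 318 and 357 CPM in WT-TKO (log2 fold change 0.37 ± 0.05, adjusted p = 2.25e-05). Ccdc171, a coiled-coil gene at 1.34 Mb, had 3.15 to 3.97 CPM (median 3.47) in KOWTKO and 4.68 to 8.56 CPM (median 6.66) in WT-TKO (log2 fold change -0.89 ± 0.13, adjusted p = 5.18e-05). Both separated the groups without overlap, in opposite directions. Acer2, an alkaline ceramidase of the Golgi at 1.24 Mb, had 2.75 to 4.74 CPM (median 3.83) in KOWTKO and 1.82 to 3.41 CPM (median 2.11) in WT-TKO (log2 fold change 0.66 ± 0.17, adjusted p = 0.00842), and overlapped between groups. Beside Sh3gl3, Hdgfl3, a growth-factor-related gene at 0.24 Mb, had 278 to 322 CPM (median 302) in KOWTKO and 219 to 267 CPM (median 248) in WT-TKO (log2 fold change 0.30 ± 0.05, adjusted p = 0.00037), and Homer2, a postsynaptic scaffold at 0.47 Mb, rose (0.40 ± 0.07). Tm6sf1, a transmembrane protein gene at 0.29 Mb, fell (log2 fold change -0.51 ± 0.12, adjusted p = 0.00445). Near the Sh3gl1 gene, Dennd1c, an activator of Rab35, had 0.159 to 0.648 CPM (median 0.363) in KOWTKO and 0.937 to 2.23 CPM (median 1.48) in WT-TKO (log2 fold change -2.11 ± 0.23, adjusted p = 1.35e-06), and Catsperd, another sperm calcium channel subunit, had 0.496 to 0.914 CPM (median 0.605) in KOWTKO and 1.44 to 1.97 CPM (median 1.67) in WT-TKO (log2 fold change -1.39 ± 0.17, adjusted p = 5.07e-06). Pot1b, a telomere-protecting protein gene 0.30 Mb away, fell as well (log2 fold change -0.66 ± 0.12, adjusted p = 0.000953), and these 3 did not overlap between groups either. Mllt1, a transcription elongation factor gene 0.86 Mb away, rose without overlap (log2 fold change 0.26 ± 0.04, adjusted p = 0.000239). Within 5 Mb of Sh3gl1, 8 of the called genes were higher and 10 lower.

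In a cluster of zinc-finger genes on chromosome 13 (67038596 to 67827002), most of the genes tested fell. Most of its members encode KRAB zinc-finger repressors, among them Rsl1, known from mouse liver as a repressor of sex-dependent genes. Of its 23 Zfp and Rsl1 genes tested, 13 fell and 0 rose, with a median log2 fold change of -0.47, beside 10.5% lower and a median of -0.01 over all genes. Zfp595 had 1.04 to 1.79 CPM (median 1.46) in KOWTKO and 1.56 to 4.31 CPM (median 2.90) in WT-TKO (log2 fold change -0.94 ± 0.20, adjusted p = 0.00255), Zfp759 1.62 to 5.41 CPM (median 3.72) in KOWTKO and 3.36 to 9.52 CPM (median 7.56) in WT-TKO (log2 fold change -0.94 ± 0.25, adjusted p = 0.00978), and Rsl1 0.622 to 1.35 CPM (median 1.13) in KOWTKO and 1.15 to 2.54 CPM (median 1.66) in WT-TKO (log2 fold change -0.71 ± 0.21, adjusted p = 0.0193). In none of the 23 genes did the groups separate fully. 6 of the 13 held in all 16 fits that left out 1 library. Without the 6 libraries 11 genes were lower, where 10.8% of all genes were lower. Without WT-TKO replicate 7, which was low in Zfp712 like replicate 8 (1.76 and 2.12 CPM), 15 were lower, beside 12.3% of all genes. The cluster was chosen after its values were seen, and its genes are similar in sequence.

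Interferon-response genes were lower in KOWTKO. Interferons induce a shared set of antiviral genes through the factor ISGF3, of which Irf9 is the DNA-binding subunit and which recognises interferon-stimulated response elements in promoters. For 6 members that fell, the promoters of RefSeq for GRCm38.p6 (250 bases before to 50 after the start) are given, because each holds a match to the core letters of that element. The promoter of Ddx58, the RNA sensor RIG-I, lies at chr4:40239776-40240075 (minus strand). That of Ifih1, the RNA sensor MDA5, lies at chr2:62646206-62646505 (minus), that of Isg15, a ubiquitin-like modifier, at chr4:156200769-156201068 (minus), and that of Rsad2, the antiviral enzyme viperin, at chr12:26456403-26456702 (minus). Those of the antigen-presentation genes B2m and H2-T22 lie at chr2:122147437-122147736 (plus) and chr17:36042693-36042992 (minus). Capitals mark every match to GAAANNGAAA on either strand. Matches may overlap, as the 3 in Isg15 do.
Ddx58: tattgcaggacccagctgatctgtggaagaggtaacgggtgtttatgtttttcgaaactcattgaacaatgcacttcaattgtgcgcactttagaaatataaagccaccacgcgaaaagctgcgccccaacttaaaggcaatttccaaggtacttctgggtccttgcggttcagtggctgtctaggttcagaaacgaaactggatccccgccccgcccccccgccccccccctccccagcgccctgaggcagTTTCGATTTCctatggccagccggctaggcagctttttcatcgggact
Ifih1: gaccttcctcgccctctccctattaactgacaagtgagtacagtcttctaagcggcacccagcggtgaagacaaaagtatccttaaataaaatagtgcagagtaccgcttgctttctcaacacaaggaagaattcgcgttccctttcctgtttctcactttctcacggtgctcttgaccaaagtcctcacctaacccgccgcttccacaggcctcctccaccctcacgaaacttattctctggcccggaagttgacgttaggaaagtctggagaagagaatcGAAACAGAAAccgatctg
Isg15: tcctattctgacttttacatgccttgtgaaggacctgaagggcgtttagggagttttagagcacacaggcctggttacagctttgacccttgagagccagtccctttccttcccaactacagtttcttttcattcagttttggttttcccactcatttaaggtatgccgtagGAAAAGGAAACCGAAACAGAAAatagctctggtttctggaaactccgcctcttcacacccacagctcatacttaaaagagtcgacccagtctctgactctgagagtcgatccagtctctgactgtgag
Rsad2: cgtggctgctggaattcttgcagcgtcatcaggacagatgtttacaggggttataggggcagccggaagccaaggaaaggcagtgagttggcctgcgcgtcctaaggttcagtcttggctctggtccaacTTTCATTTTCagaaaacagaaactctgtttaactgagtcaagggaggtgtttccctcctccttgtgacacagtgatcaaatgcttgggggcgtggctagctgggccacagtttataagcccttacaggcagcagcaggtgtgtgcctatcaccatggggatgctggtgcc
B2m: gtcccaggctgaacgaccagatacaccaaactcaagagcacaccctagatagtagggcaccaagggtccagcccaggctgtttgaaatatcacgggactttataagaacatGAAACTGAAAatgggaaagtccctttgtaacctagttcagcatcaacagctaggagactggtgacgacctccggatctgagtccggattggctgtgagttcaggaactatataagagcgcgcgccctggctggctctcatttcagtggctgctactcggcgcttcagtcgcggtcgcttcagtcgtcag
H2-T22: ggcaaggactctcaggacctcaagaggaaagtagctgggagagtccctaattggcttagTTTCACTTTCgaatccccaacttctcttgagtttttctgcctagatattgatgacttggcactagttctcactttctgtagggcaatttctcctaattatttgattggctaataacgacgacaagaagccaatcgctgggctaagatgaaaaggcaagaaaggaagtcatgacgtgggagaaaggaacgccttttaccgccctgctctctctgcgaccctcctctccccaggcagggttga

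The letters were found in 1131 of 32851 RefSeq promoters (3.44%) and in 410 of 11761 promoters of tested genes (3.49%). Among the interferon-response genes tested they were in 9 of 19 promoters that could be matched, and in 5 of the 10 of genes that fell. In the list of MHC class I and antigen processing they were in 5 of 16, and in 3 of the 6 of genes that fell. A match describes letters in this window, not a bound site.

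Of 26 interferon-response genes tested, 16 fell and 0 rose, with a median log2 fold change of -0.70. Over all genes, 10.5% were called lower and the median was -0.01. Iigp1, an interferon-induced GTPase, had 0.236, 0.425 and 0.583 CPM (lowest, median and highest library) in KOWTKO, against 0.907, 1.01 and 2.08 CPM in WT-TKO (log2 fold change -1.46 ± 0.21, adjusted p = 7.96e-05). Irf9 had 9.52, 12 and 13.2 CPM (lowest, median and highest library) in KOWTKO, against 14.2, 18.2 and 22.4 CPM in WT-TKO (log2 fold change -0.62 ± 0.09, adjusted p = 8.95e-05), and both separated the groups. Irf9 shares 123 exon bases with Rnf31. Lgals3bp, a secreted galectin-binding protein, had 2.50 to 4.4 CPM (median 2.66) in KOWTKO and 2.29 to 13.4 CPM (median 6.38) in WT-TKO (log2 fold change -1.20 ± 0.22, adjusted p = 0.000892), with overlap.

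The RNA sensors and effectors whose promoters are shown fell as well. Ddx58 had 2.72 to 4.47 CPM (median 3.93) in KOWTKO and 3.68 to 7.98 CPM (median 5.55) in WT-TKO (log2 fold change -0.55 ± 0.13, adjusted p = 0.00585), Rsad2 0.135 to 0.688 CPM (median 0.460) in KOWTKO and 0.312 to 1.61 CPM (median 1.34) in WT-TKO (log2 fold change -1.27 ± 0.32, adjusted p = 0.00685) and Ifih1 0.648 to 2.10 CPM (median 1.30) in KOWTKO and 1.36 to 2.95 CPM (median 2.25) in WT-TKO (log2 fold change -0.65 ± 0.20, adjusted p = 0.0225). Isg15 was called (log2 fold change -0.90 ± 0.31, adjusted p = 0.0378) but not called in 12 of 25 alternatives, over which the log2 fold change ran from -1.23 to -0.74. In summed level the list had 77.9 to 119 CPM in KOWTKO (median 109.5) and 112 to 179.7 CPM in WT-TKO (median 142). Each of the 16 fits that left out 1 library called 11 to 21 of the genes lower, the 11 without WT-TKO replicate 1, which had the highest sum. The fit without that replicate called 7.91% of all genes lower. Without the 6 libraries that stood apart, 17 were lower, in a fit that called 10.8% of all genes lower. That fit left out WT-TKO replicates 5, 6 and 7, which had the lowest WT-TKO sums (112, 118 and 118 CPM), and kept replicate 1. With sex as a covariate and WT-TKO replicate 8 left out, 12 were lower, against 16 without that replicate and no covariate.

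Of 19 genes of MHC class I and antigen processing, 6 fell and 1 rose, with a median of -0.23, beside 10.5% of all genes called in each direction. Without the 6 libraries 5 fell and 1 rose, with a median of -0.09, where 10.8% of all genes were lower and 13.6% higher. The summed level of the list was not lower, with 1277 to 1436 CPM in KOWTKO (median 1344) and 1239 to 1431 CPM in WT-TKO (median 1284). B2m, the constant light chain of class I molecules, had 11.7, 14.5 and 18.3 CPM (lowest, median and highest library) in KOWTKO, against 16.9, 25.6 and 38.0 CPM in WT-TKO (log2 fold change -0.85 ± 0.13, adjusted p = 0.000169). H2-T22, a nonclassical class I gene, had 1.60 to 3.06 CPM (median 2.31) in KOWTKO and 2.01 to 6.35 CPM (median 4.22) in WT-TKO (log2 fold change -0.90 ± 0.19, adjusted p = 0.00262). H2-K1, a classical class I heavy chain, fell (-0.82 ± 0.21), but was not called without WT-TKO replicates 5 and 6 or without the 6 libraries (-0.23). H2-T22 shares 1003 exon bases with A930015D03Rik, and H2 genes are alike in sequence and differ between mouse strains, so their counts are uncertain. The 1 rise was Pdia3, a chaperone of class I folding (0.17), called in some of the fits that left out 1 library and not in others.

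Microglial genes were lower too. Microglia are the resident macrophages of the brain, and in these bulk samples fewer cells of a type and less RNA per cell cannot be told apart. Of 28 microglial markers tested, 20 fell and 0 rose (median -0.50), 5 of them without overlap between groups. Over all genes, 10.5% were called lower and 0.916% were lower without overlap. Trem2, a lipid-sensing receptor, had 2.39, 3.00 and 3.64 CPM (lowest, median and highest library) in KOWTKO, against 4.66, 4.72 and 6.12 CPM in WT-TKO (log2 fold change -0.72 ± 0.13, adjusted p = 0.00057), and Fcer1g, a signalling adaptor of Fc receptors, had 1.71, 2.15 and 2.91 CPM (lowest, median and highest library) in KOWTKO, against 3.00, 3.72 and 4.42 CPM in WT-TKO (log2 fold change -0.73 ± 0.14, adjusted p = 0.000989). Laptm5, a lysosomal membrane protein of blood cells, had 11.5 to 15.5 CPM (median 13.8) in KOWTKO and 15.6 to 22.6 CPM (median 19.0) in WT-TKO (log2 fold change -0.47 ± 0.09, adjusted p = 0.000958). None of these 3 overlapped between groups.

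Summed over the markers, KOWTKO libraries had 184 to 226 CPM (median 202) and WT-TKO libraries 227 to 358 CPM (median 275), again without overlap. Of receptors outside the list, named after their values were seen, C3ar1, for complement, had 0.518 to 1.15 CPM (median 0.925) in KOWTKO and 1.42 to 2.39 CPM (median 2.06) in WT-TKO (log2 fold change -1.10 ± 0.18, adjusted p = 0.000298), and Fcgr1, a high-affinity Fc receptor, had 0.648 to 0.994 CPM (median 0.794) in KOWTKO and 1.14 to 2.29 CPM (median 1.76) in WT-TKO (log2 fold change -1.10 ± 0.18, adjusted p = 0.000239). P2ry12, the purine receptor typical of resting microglia, was not called (log2 fold change -0.48 ± 0.21, adjusted p = 0.0964). Aif1, the cytoskeletal marker Iba1, was called (log2 fold change -1.15 ± 0.30, adjusted p = 0.00968) but not without WT-TKO replicates 5 and 6 or without the 6 libraries (-0.32). The count of lower markers was 13 without WT-TKO replicate 6, 14 without replicate 8 and 12 without the 6 libraries. In those fits 8.6%, 11.2% and 10.8% of all genes were lower, in the same order. No microglial marker was at 0 in all libraries of a group, and the part of microglial RNA in the interferon and class I genes, which microglia also express, was not tested.

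Markers of choroid plexus and meninges were lower in KOWTKO, with a few wild-type libraries far above the rest. The choroid plexus makes cerebrospinal fluid, and 12 of its 21 markers tested fell and 0 rose (median -0.81), beside 10.5% of all genes lower. The sum of the markers was 126 to 184 CPM in KOWTKO (median 147) and 175 to 1393 CPM in WT-TKO (median 286). In WT-TKO, replicate 7 reached 1393 and replicate 8 reached 557. Ttr, the thyroxine carrier transthyretin, had 5.45 to 25.4 CPM (median 13.8) in KOWTKO and 26.5 to 1081 CPM (median 85.5) in WT-TKO (log2 fold change -3.90 ± 0.84, adjusted p = 0.00345), and no overlap. Slc4a5, a bicarbonate transporter, had 0.202 to 0.586 CPM (median 0.282) in KOWTKO and 0.579 to 7.33 CPM (median 0.931) in WT-TKO (log2 fold change -2.39 ± 0.49, adjusted p = 0.00195), and Kl, the FGF23 coreceptor klotho, 0.130 to 0.888 CPM (median 0.569) in KOWTKO and 0.598 to 5.44 CPM (median 1.33) in WT-TKO (log2 fold change -1.56 ± 0.37, adjusted p = 0.00503). Without the 6 libraries, where 10.8% of all genes were lower, 6 markers were lower and Ttr was not called (-2.05).

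Of 24 meningeal and fibroblast markers, 11 fell and 0 rose (median -0.88), beside 10.5% of all genes lower. The falls numbered 5 without WT-TKO replicate 1, where 7.91% of all genes were lower. Without the 6 libraries they numbered 11, where 10.8% of all genes were lower. Ptgds, which makes prostaglandin D2 and is abundant in the leptomeninges, had 1.36 to 4.92 CPM (median 2.66) in KOWTKO and 1.56 to 147 CPM (median 12.4) in WT-TKO (log2 fold change -3.84 ± 0.79, adjusted p = 0.00255). Fmod, a collagen-binding proteoglycan, had 0.539 to 1.76 CPM (median 1.18) in KOWTKO and 1.25 to 7.54 CPM (median 2.44) in WT-TKO (log2 fold change -1.65 ± 0.34, adjusted p = 0.00195), and Bgn, the proteoglycan biglycan, 14.0 to 20.3 CPM (median 17.9) in KOWTKO and 17.4 to 32.0 CPM (median 22.4) in WT-TKO (log2 fold change -0.43 ± 0.11, adjusted p = 0.00638). The summed markers came to 261 to 447 CPM in KOWTKO (median 356) and 314 to 941 CPM in WT-TKO (median 421), with the maximum in replicate 1.

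For oligodendrocyte and myelin genes the count rested on 1 library. There were 7 falls of 23 tested and 0 rises (median -0.49), beside 10.5% of all genes lower. Without WT-TKO replicate 8, a fit that called 11.2% of all genes lower, 3 fell (median -0.10). Likewise 3 fell without the 6 libraries, where 10.8% of all genes were lower. Replicate 8 held 1314 CPM of the list, against at most 321 CPM in any other of the 16. Mbp, a main myelin protein gene, had 30.2 to 37.4 CPM (median 34.1) in KOWTKO and 26.6 to 247 CPM (median 28.7) in WT-TKO and was not called (log2 fold change -0.71 ± 0.40, adjusted p = 0.209). Gpr17, a receptor of committed precursors, had 4.47 to 10.1 CPM (median 7.97) in KOWTKO and 6.73 to 15.8 CPM (median 14.3) in WT-TKO (log2 fold change -0.82 ± 0.19, adjusted p = 0.00399) and kept its call without the 6 libraries (-0.94). Cldn11, a tight-junction gene of both myelin and meninges, had 0.226 to 1.47 CPM (median 0.474) in KOWTKO and 0.510 to 34.8 CPM (median 1.39) in WT-TKO (log2 fold change -3.29 ± 0.74, adjusted p = 0.00415).

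Vessel genes did not move one way. Of 32 endothelial and pericyte markers, 2 fell and 2 rose (median -0.09), below the 10.5% of all genes called in each direction. Their sums were 715 to 1074 CPM in KOWTKO and 705 to 1022 CPM in WT-TKO. Without the 6 libraries 8 fell and 2 rose, and without WT-TKO replicate 5 alone 7 fell. The fit without the 6 called 10.8% of all genes lower, and the fit without replicate 5 called 9.16% lower. Ramp2, a receptor partner of adrenomedullin signalling, fell (-0.39 ± 0.08) and shares 1103 exon bases with Vps25, and Lipg, endothelial lipase, fell (-0.51 ± 0.15). Abcc9, a subunit of pericyte potassium channels, rose (0.43 ± 0.11). Of 16 red blood cell and iron genes, 0 were called in edgeR's quasi-likelihood test, with 6 at an unadjusted p under 0.05 and 1 called by DESeq2 and by limma-voom, and without the 6 libraries 2 of 17 rose and 1 fell.

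**Figure D4:**
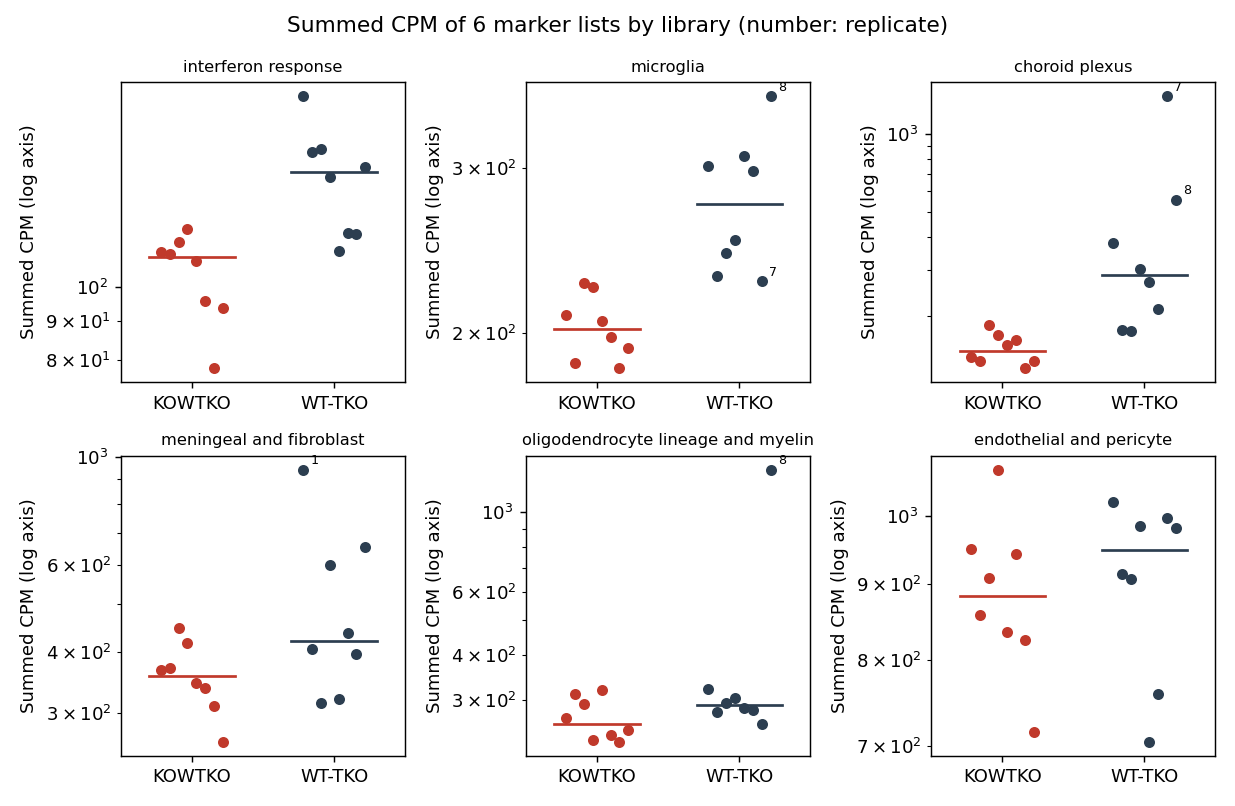
Summed CPM (log axis) of the interferon-response list and of 5 marker lists in each KOWTKO and WT-TKO library, with bars at the median. The groups separate for microglia (184 to 226 against 227 to 358 CPM), and WT-TKO replicates 7 (choroid plexus, 1393 CPM) and 8 (myelin, 1314 CPM) stand high.

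Young-neuron genes gave the most rises of the neuronal lists. Of 26 genes of immature neurons and neurogenesis, 7 rose and 0 fell (median 0.09), beside 10.5% of all genes in each direction. In the fits that left out 1 library 5 to 10 were higher, and 4 of the 7 were called in every such fit. The 10 came without WT-TKO replicate 7, where 12.8% of all genes were higher. Without the 6 libraries 8 were higher and 1 lower, beside 13.6% and 10.8% of all genes. Dcx, the microtubule protein doublecortin of migrating neurons, had 2737 ± 185 CPM in KOWTKO and 2147 ± 230.2 CPM in WT-TKO (SD, n = 8 each), a log2 fold change of 0.35 ± 0.07 (adjusted p = 0.00109). Sox4, a transcription factor of newborn neurons, had 218 to 444 CPM (median 259) in KOWTKO and 182 to 244 CPM (median 202) in WT-TKO (log2 fold change 0.49 ± 0.11, adjusted p = 0.00294) and shares 2616 exon bases with Gm26735. Its relative Sox11 had 46.0 to 144 CPM (median 75.2) in KOWTKO and 42.3 to 63.3 CPM (median 56.6) in WT-TKO (log2 fold change 0.57 ± 0.15, adjusted p = 0.0113), and was not called without the 6 libraries (0.59). All 3 overlapped between groups.

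Genes of dividing cells gave 3 rises of 33 and 0 falls (median 0.07), 1 to 5 rises when 1 library was left out, and 4 rises without the 6. The 3 of 33 lie below the 10.5% of all genes called higher, and the 4 below the 13.6% of all genes without the 6. Cenpf, a kinetochore protein gene, rose (0.46 ± 0.14) and was not called without WT-TKO replicates 5 and 6 (0.43), while Mcm5, a replication helicase subunit (0.23 ± 0.08), was not called in 10 of 25 alternatives, over which the log2 fold change ran from 0.20 to 0.35, and Mki67, the marker Ki-67 (0.39 ± 0.14), was not called in 16 of 25 alternatives, over which the log2 fold change ran from 0.33 to 0.44. Of 32 excitatory-neuron and subfield genes, 4 rose and 3 fell, near the 10.5% of all genes called in each direction. As many rose and fell without the 6 libraries, and 2 to 5 rose when 1 library was left out. Bok, a Bcl-2 family gene of CA3 neurons, had 37.2 to 57.5 CPM (median 50.8) in KOWTKO and 33.3 to 38.8 CPM (median 36.9) in WT-TKO (log2 fold change 0.45 ± 0.08, adjusted p = 0.000608), Lct, the lactase gene, fell (-0.60 ± 0.15), and Grin2a, the maturing NMDA receptor subunit, rose (0.62 ± 0.17), a call lost without the 6 libraries (0.56). Of 29 interneuron genes, 3 rose and 2 fell, beside the same 10.5% of all genes in each direction. Without the 6 libraries the counts were 3 and 1, and 2 to 6 rose and 0 to 4 fell when 1 library was left out. Lhx6, which specifies interneurons of the medial ganglionic eminence, rose without overlap (125 to 157 CPM in KOWTKO and 111 to 123 CPM in WT-TKO; log2 fold change 0.21 ± 0.06, adjusted p = 0.0126), and lost its call without the 6 libraries (0.18). Dlx2 (0.38 ± 0.12) was not called in 5 of 25 alternatives, over which the log2 fold change ran from 0.30 to 0.45.

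Of 29 radial glia and astrocyte genes, 6 fell and 2 rose (median -0.10), beside 10.5% of all genes called in each direction. Without the 6 libraries 6 fell and 4 rose, and the rises numbered 5 without KOWTKO replicate 7 or without WT-TKO replicate 7. Fgfr3, a growth factor receptor of radial glia, had 53.7 to 69.9 CPM (median 61.4) in KOWTKO and 69.6 to 82.4 CPM (median 76.7) in WT-TKO (log2 fold change -0.32 ± 0.07, adjusted p = 0.00204), and Id4, an inhibitor of neuronal differentiation factors, fell (-0.33 ± 0.08), a call that was lost without the 6 libraries (-0.25). Both share exon bases with another gene. Ptprz1, a receptor phosphatase of radial glia, rose with 571 to 870.4 CPM (median 786) in KOWTKO and 502 to 680.0 CPM (median 652) in WT-TKO (log2 fold change 0.30 ± 0.08, adjusted p = 0.00892). Of 23 reactive astrocyte genes 4 fell and 1 rose, and without the 6 libraries 5 fell and 2 rose. The rise was Emp1, an epithelial membrane protein gene, with 24.7 to 40.7 CPM (median 31.4) in KOWTKO and 18.2 to 25.7 CPM (median 20.9) in WT-TKO (log2 fold change 0.60 ± 0.11, adjusted p = 0.00091), and among the falls were Iigp1, which the interferon list also holds, and Ggta1, a galactosyltransferase (-0.49 ± 0.12).

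**Figure D5:**
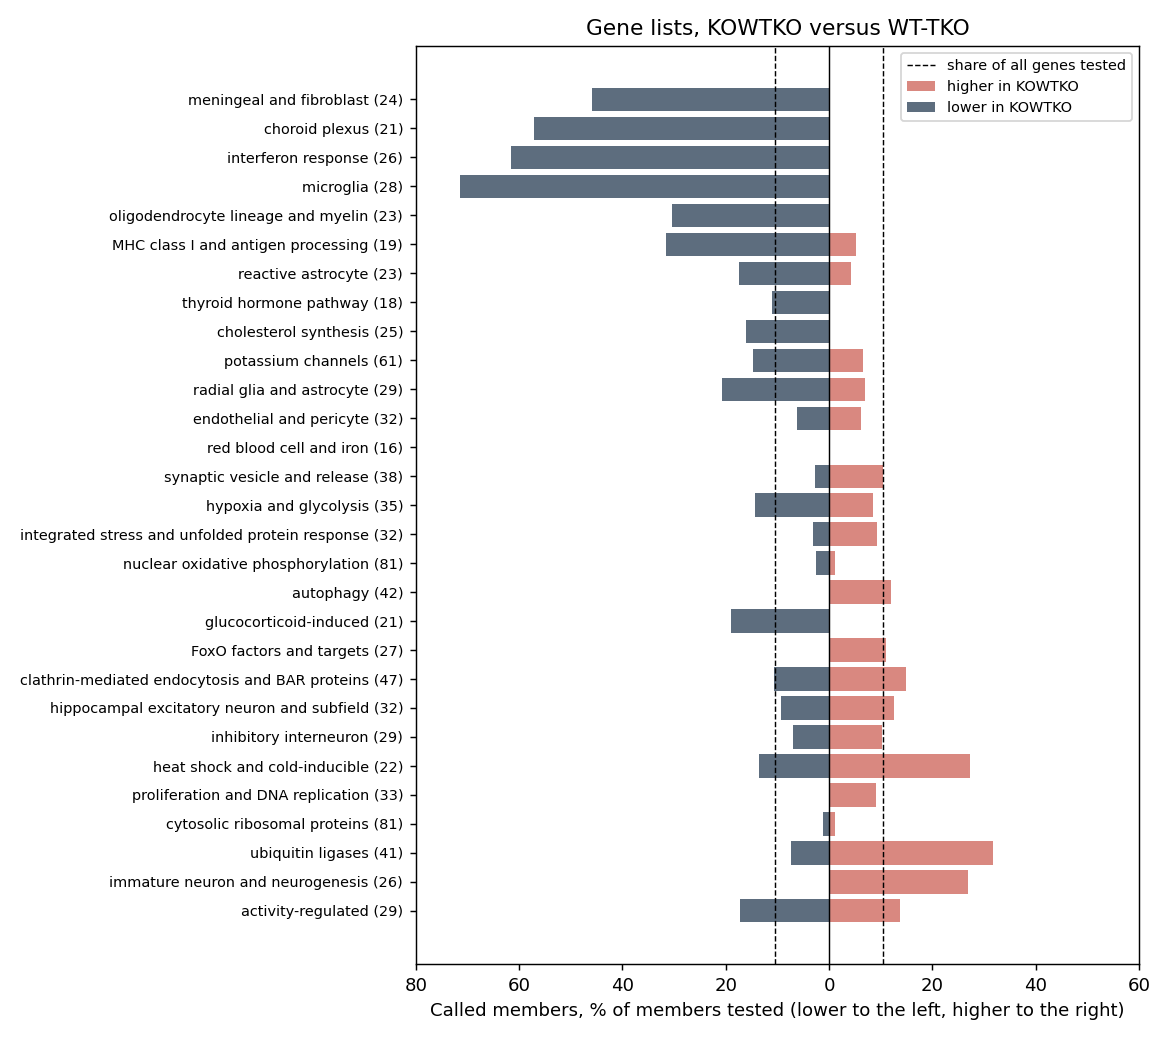
Share of tested genes called higher and called lower in KOWTKO for each gene list, in percent, with dashed lines at the 10.5% of all tested genes called in each direction. Microglia (20 of 28 lower), interferon response (16 of 26), choroid plexus (12 of 21) and meninges (11 of 24) lie farthest to the lower side, and ubiquitin ligases (13 of 41 higher) to the other.

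The endocytic genes that work with endophilin changed little in size. Of 47 genes of clathrin-mediated endocytosis and BAR proteins, 7 rose and 5 fell (median 0.05), and Sh3gl2 and Sh3gl3 are 2 of the 5. Over all genes, 10.5% were called in each direction. The counts were 9 and 7 without the 6 libraries, where 13.6% of all genes were higher and 10.8% lower. Sh3glb1, which encodes endophilin B1 of autophagosome and mitochondrial membranes, rose without overlap (200.3 to 223 CPM in KOWTKO and 166 to 197 CPM in WT-TKO; log2 fold change 0.21 ± 0.04, adjusted p = 0.00205). The clathrin heavy chain Cltc (0.32) and the adaptor subunits Ap2b1 (0.19) and Ap2a2 (0.20) rose, and Snx9 (-0.28) and Pacsin1 (-0.41), which bind dynamin, fell. The remaining fall was Hspa8, the uncoating chaperone (-1.19), whose many near-identical pseudogenes make its count uncertain.

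Of 38 synaptic vesicle and release genes, 4 rose and 1 fell (median -0.04), beside 10.5% of all genes called in each direction. The rises were thus about as frequent as over all genes. Dnajc5, the vesicle chaperone CSPα, had 550.0 to 614 CPM (median 568) in KOWTKO and 433 to 542 CPM (median 481) in WT-TKO (log2 fold change 0.24 ± 0.05, adjusted p = 0.00306), without overlap. Bsn, the active-zone scaffold bassoon, had 123 to 211 CPM (median 189) in KOWTKO and 93.7 to 147 CPM (median 121) in WT-TKO (log2 fold change 0.59 ± 0.13, adjusted p = 0.00278). The fall, in the vesicular glutamate transporter Slc17a6 (-0.26 ± 0.08), was not called in 8 of 25 alternatives, over which the log2 fold change ran from -0.31 to -0.19. Counts in this list ran from 2 to 8 rises, the 8 without WT-TKO replicate 8, and from 0 to 3 falls when 1 library was left out, and were 5 and 1 without the 6. Of all genes, 12.5% were higher without WT-TKO replicate 8, and 13.6% were higher and 10.8% lower without the 6.

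Ubiquitin ligase genes, which mark proteins for degradation or sorting, gave 13 rises and 3 falls of 41 (median 0.09), and 4 of the rises were without overlap. Over all genes, 10.5% were called in each direction and 1.39% were higher without overlap. Trim67, a brain-enriched tripartite-motif ligase, had 518 to 652 CPM (median 608) in KOWTKO and 351 to 463 CPM (median 435) in WT-TKO (log2 fold change 0.47 ± 0.07, adjusted p = 5.07e-05) and shares 140 exon bases with Gm16163. Cul3, a scaffold of cullin-RING ligases, had 244 to 300.4 CPM (median 275) in KOWTKO and 191 to 233 CPM (median 214) in WT-TKO (log2 fold change 0.35 ± 0.05, adjusted p = 0.000162), and Fbxo21, an F-box gene, rose (0.22 ± 0.04). Rises numbered 8 without any one of WT-TKO replicates 1, 2, 3, 4 and 6, and 14 without the 6 libraries, where 2 fell. The fits without one of those replicates called 7.85% to 8.92% of all genes higher. Without the 6 libraries 13.6% of all genes were higher and 10.8% lower. Fbxo32, the F-box ligase atrogin-1, was not called in this comparison (8.42 to 11.8 CPM in KOWTKO and 7.77 to 12.5 CPM in WT-TKO; log2 fold change 0.17 ± 0.11, adjusted p = 0.259), and its TKO median was 15.1 CPM.

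Among the FoxO factors with their targets, 3 of 27 rose and 0 fell (median 0.05), close to the 10.5% of all genes called higher. Counts were also 3 and 0 without the 6 libraries (median 0.09), where 13.6% of all genes were higher. Without WT-TKO replicate 7, 6 rose, where 12.8% of all genes were higher. Foxo6, the FoxO factor enriched in hippocampus, had 49.5 to 111 CPM (median 70.8) in KOWTKO and 46.4 to 70.3 CPM (median 50.8) in WT-TKO (log2 fold change 0.46 ± 0.12, adjusted p = 0.011). Txnip, an inhibitor of thioredoxin and of glucose uptake, had 157 to 199.8 CPM (median 180.2) in KOWTKO and 53.2 to 182 CPM (median 78.6) in WT-TKO (log2 fold change 0.88 ± 0.27, adjusted p = 0.0225), and shares 606 exon bases with Gm15441. Its log2 fold change was 0.78 without WT-TKO replicates 5 and 6, no longer called (adjusted p = 0.0747), and 1.37 without the 6 libraries, called (adjusted p = 0.00463). Sesn3, which restrains mTORC1, rose (0.39 ± 0.10) and was not called without the 6 libraries (0.25). Of 42 autophagy genes 5 rose and 0 fell (median 0.01), the rises again close to the 10.5% of all genes. Without the 6 libraries 10 rose and 3 fell, where 13.6% of all genes were higher and 10.8% lower. Without WT-TKO replicate 8 alone 8 rose, where 12.5% of all genes were higher. Uvrag, a subunit of a Vps34 kinase complex, rose (0.31 ± 0.07), as did the cargo receptor Tax1bp1 (0.17 ± 0.04) and the initiating kinase Ulk1 (0.20 ± 0.05).

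Stress, metabolic and signalling lists are read against the background of 10.5% of all genes in each direction. Of 22 heat-shock and cold-inducible genes, 6 rose and 3 fell, against 7 and 3 without the 6 libraries, and 0 fell without KOWTKO replicate 6 or without WT-TKO replicate 3 or 4. Among the rises were Hsp90aa1 (188 to 233 CPM in KOWTKO and 162 to 184 CPM in WT-TKO; log2 fold change 0.27 ± 0.06, adjusted p = 0.00332), a cytosolic chaperone, with Hsp90ab1 (0.20 ± 0.05) and the co-chaperone Dnaja1 (0.14 ± 0.04). Of 32 genes of the unfolded protein and integrated stress responses, 3 rose and 1 fell, against 4 and 1 without the 6 libraries: the chaperone partners Dnajc3 (0.22 ± 0.06) and Dnajb11 (0.19 ± 0.05) rose, and Ppp1r15a, the phosphatase subunit GADD34 (0.44 ± 0.14), was not called in 9 of 25 alternatives, over which the log2 fold change ran from 0.38 to 0.65. Of 35 hypoxia and glycolysis genes, 5 fell and 3 rose, 5 each without the 6 libraries, and 3 to 5 fell and 1 to 5 rose when 1 library was left out. Vegfa, the vascular growth factor, had 47.9 to 61.1 CPM (median 53.3) in KOWTKO and 59.4 to 75.1 CPM (median 69.0) in WT-TKO (log2 fold change -0.34 ± 0.07, adjusted p = 0.00117), and Egln1, the oxygen-sensing prolyl hydroxylase, rose (0.23 ± 0.06). Gapdh, a glycolytic enzyme with many pseudogenes and so an uncertain count, fell (-1.11 ± 0.30), with 5.64 to 20.9 CPM in KOWTKO, 6.35 and 7.36 CPM in WT-TKO replicates 5 and 6, and 26.7 to 32.4 CPM in the other WT-TKO libraries.

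Of 25 cholesterol-synthesis genes 4 fell and 0 rose, with and without the 6 libraries, beside 10.5% and 10.8% of all genes lower. The sterol enzyme Ebp had 4.92 to 7.89 CPM (median 6.87) in KOWTKO and 7.53 to 10.5 CPM (median 8.97) in WT-TKO (log2 fold change -0.39 ± 0.10, adjusted p = 0.0074), and Tm7sf2, another sterol enzyme, fell (-0.39 ± 0.11). Its log2 fold change was -0.26 without WT-TKO replicates 5 and 6, no longer called (adjusted p = 0.101), and -0.42 without the 6 libraries, called (adjusted p = 0.0161). Of 21 glucocorticoid-induced genes 4 fell and 0 rose, again with and without the 6 libraries, while the median of the list was 0.03. Arrdc2, an arrestin-domain gene, had 5.76 to 7.45 CPM (median 6.95) in KOWTKO and 7.56 to 11.1 CPM (median 8.85) in WT-TKO (log2 fold change -0.45 ± 0.12, adjusted p = 0.00914) without overlap, Mertk, a receptor for apoptotic cells, fell (-0.46 ± 0.11), and Sult1a1, a sulfotransferase, fell (-1.25 ± 0.31). Of 18 genes of the thyroid hormone pathway 2 fell, one of them Ttr, and 0 rose, against 1 fall and 1 rise without the 6 libraries and 2 rises without WT-TKO replicate 7.

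Of 29 activity-regulated genes, 4 rose and 5 fell (median 0.12), beside 10.5% of all genes called in each direction. There were 5 each without the 6 libraries, and 2 to 7 rose when 1 library was left out. Btg2, an antiproliferative early gene, had 9.02 to 14.5 CPM (median 12) in KOWTKO and 16 to 19.2 CPM (median 17.8) in WT-TKO (log2 fold change -0.58 ± 0.12, adjusted p = 0.00174), without overlap. Rgs2, a regulator of G proteins, fell (-0.37 ± 0.09), Bdnf, the neurotrophin, fell (-0.34), and Dusp4, a MAP kinase phosphatase (0.39 ± 0.10), and Egr2 (0.85) rose. Of 61 potassium channel genes, 9 fell and 4 rose (median -0.12), beside the same 10.5% of all genes in each direction. The falls numbered 5 without KOWTKO replicate 4, where 8.21% of all genes were lower. They reached 12 without WT-TKO replicate 7, where 12.3% of all genes were lower. Without the 6 libraries 11 fell and 8 rose, where 10.8% of all genes were lower and 13.6% higher. Kcnd3, of the A-current, had 112 to 138 CPM (median 128) in KOWTKO and 91.5 to 112 CPM (median 104) in WT-TKO (log2 fold change 0.30 ± 0.06, adjusted p = 0.00193), without overlap, while Kcnip3, a channel-interacting calcium sensor, fell (-0.26 ± 0.06). Nuclear genes of oxidative phosphorylation gave 1 rise and 2 falls of 81 (median 0.01), below the background in both directions, namely Ndufa11 of complex I (0.24 ± 0.07), Cox7c of complex IV (-0.50 ± 0.12), and Cox6b2, its testis form (-0.56 ± 0.20), which was not called in 15 of 25 alternatives, over which the log2 fold change ran from -0.73 to -0.48. There were 8 rises and 2 falls without the 6 libraries, and 7 rises without WT-TKO replicate 7 alone, still below the 13.6% and 12.8% of all genes called higher in those fits. Cytosolic ribosomal protein genes gave 1 rise and 1 fall of 81, with 4 rises and 0 falls without the 6 libraries and 6 rises without WT-TKO replicate 7.

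The TKO libraries were also low in Sh3gl2 and Sh3gl3, and are given beside the others without a comparison of effects, since both contrasts share the WT-TKO libraries. TKO against WT-TKO had 3595 genes called (22.9%; 10.8% higher and 12% lower). Log2 fold changes of TKO over WT-TKO were -1.52 for 4833420G17Rik, -2.14 for Ccl28, -1.62 for Col15a1, 3.39 for Ren1, -0.91 for B2m, -0.40 for Irf9 and -0.37 for Trem2. Those of KOWTKO over WT-TKO were -2.05, -3.15, -1.56, 2.99, -0.85, -0.62 and -0.72 in the same order. Fbxo32 was at 0.91 in TKO and 0.17 in KOWTKO, both over WT-TKO.

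The most similar comparison in the series sets littermate controls of A1A2 double knockouts (KOWT, n = 7), which were low in Sh3gl2 and not in Sh3gl3 as a group, against separate wild types (WT-DKO, n = 10), both given as postnatal day 13 to 21 by their age label. Another label, on growth, calls all mice of the series newborn, so the older age of these groups rests on the age label alone. It shares no library with the comparison at birth, and called 711 of 16114 genes (4.41%; 2.33% higher and 2.09% lower). Of 15204 genes tested at both ages, 3250 were called at birth and 656 at the older age. In all 200 were called at both, which is 6.15% of the birth calls and 30.5% of the older ones, 148 in the same direction and 52 in opposite ones. The difference of the log2 fold changes was called in 1915 of 16805 genes (11.4%; 5.52% above 0 and 5.88% below).

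Some of the genes above also differed at the older age. 4833420G17Rik had an older log2 fold change of -1.43 ± 0.29 (adjusted p = 0.0045), Col15a1 -1.24 ± 0.15 (adjusted p = 5.09e-06), Ccdc171 -0.68 ± 0.14 (adjusted p = 0.00471) and Fgf10 0.57 ± 0.10 (adjusted p = 0.000543), each with the sign it had at birth. B2m (-0.51 ± 0.12 (adjusted p = 0.00995)), Lgals3bp (-0.79 ± 0.16 (adjusted p = 0.00471)), Isg15 (-1.10 ± 0.24 (adjusted p = 0.00611)) and Rsad2 (-1.73 ± 0.36 (adjusted p = 0.00517)) were lower at both ages too. Ccl28 (0.08 ± 0.61 (adjusted p = 0.972)), Tmem267 (-0.05 ± 0.31 (adjusted p = 0.97)) and Polh (0.05 ± 0.13 (adjusted p = 0.919)) were called at birth and not at the older age, and the differences were called as well (-3.22, -1.56 and -0.91 in that order). For Trem2 the older value was -0.25 ± 0.09 (adjusted p = 0.106) and the difference -0.46, also called. For Arrdc2 and Sult1a1, lower at birth, it was 0.74 ± 0.14 (adjusted p = 0.00244) and 1.02 ± 0.18 (adjusted p = 0.00107), both higher in KOWT.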

How the data were processed

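Polyadenylated RNA of mouse hippocampus was sequenced in 49 samples, 16 of them compared here. Per the labels' protocols, total RNA was taken with 1 of 2 column kits, not assigned to samples in the labels, and the library kit (TruSeq RNA v2) carries no strand information. The submitters' processing notes name CASAVA 1.8.2, the aligner STAR 2.3.0e, DESeq2 and mouse build mm10. Which read counter and annotation were used is not given in the sources used here. As the values show, the authors deposited raw read counts, whole numbers per Ensembl gene. Library sizes and tests do not include 5 lines that name no gene. They held 8.89% to 15.1% of reads without a feature and 1.74% to 1.92% of ambiguous reads per library, and 54.8 to 86.8 alignments that were not unique per 100 reads on genes. Of 38355 genes, 36602 matched GENCODE M21 on GRCm38, the assembly that mm10 denotes.

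From these counts edgeR 4.0.16 in R 4.3.3 was run over the 25 day-0 libraries (9 TKO, 8 KOWTKO, 8 WT-TKO), with filterByExpr, TMM, a robust quasi-likelihood fit and group means only, and p-values were adjusted by Benjamini-Hochberg over the 15715 genes tested. The age difference was tested over all 49 libraries. By a chi-square comparison, every pair of libraries within a group differed by more than sampling noise. On simulated counts of 15715 genes 72 of 100 genes set 1.5-fold apart and 89 of 100 set 2-fold apart were found, and 12 of 173 calls were false. The simulation changed far fewer genes than were called here and drew each gene independently. Shifts shared by many genes of a library, such as the choroid plexus RNA of WT-TKO replicate 7, were not simulated. Its share of false calls therefore does not carry over to the real calls. Alternatives were RLE size factors, no filter, DESeq2 1.42.0, voom in limma 3.58.1, only 2 groups, a replicate block, each library left out, and 3 added after seeing the data (without WT-TKO replicates 5 and 6, without 6 libraries, and sex as a covariate together with leaving out WT-TKO replicate 8, which held genes of both sexes). Genes named by rule were the 3 endophilin A genes, the 10 largest rises and 10 largest falls among called genes that have a name and average at least 1 in log2 CPM, and the 3 called members with the smallest p of each list with at least 3. Genes without overlap, on chromosome 13 and near the targeted genes, and the promoters shown, were picked after their values were seen. Members and lists were chosen with earlier results of these data known. Of the 129 genes named with all values, 40 share exon bases with another gene. A list of mitochondrially encoded genes was not used here. The results of a few genes that the rule would name are not reported here.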

Additional observations from a re-analysis of the deposited data

Results flagged for a closer look

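In 250 sets of 8 libraries (a named gene in 1 group), the highest or lowest library was tested for a gap to the rest with Dixon's criterion, and 32 stood apart. For normally distributed values of genes not chosen by their values, chance gives about 1 in 20. Many of these genes were named for large changes or after their values were seen, so the 32 cannot be judged against that rate. In KOWTKO replicate 1, Gm23935 (47.5 CPM) and Scand1 (21.7 CPM) stood apart. In KOWTKO replicate 3, Sh3gl1 (35 CPM), Stap2 (11.8 CPM) and Mpnd (52.1 CPM) stood apart. In KOWTKO replicate 7, Rn7sk (62.4 CPM), Gm26917 (181 CPM), Hsp90ab1 (3146 CPM), Ndufa11 (81.3 CPM) and Zfp131 (57.8 CPM) stood apart. In WT-TKO replicate 1, Scand1 (2.87 CPM) and Iigp1 (2.08 CPM) stood apart. In WT-TKO replicate 5, Piezo2 (4.45 CPM) and Rpsa-ps10 (63.5 CPM) stood apart. In WT-TKO replicate 7, Ttr (1081 CPM), Foxo6 (70.3 CPM), Rgs2 (22.1 CPM), Gpr17 (6.73 CPM) and Slc4a5 (7.33 CPM) stood apart. In WT-TKO replicate 8, Rps13-ps1 (1.29 CPM), Rps15a-ps8 (1.51 CPM), Cldn11 (34.8 CPM), Slc17a6 (60.5 CPM), Mertk (12.1 CPM), Trem2 (6.12 CPM), Kl (5.44 CPM), Pdyn (11.7 CPM), Fbxo32 (12.5 CPM) and Mbp (247 CPM) stood apart. The remaining values that stood apart were Sesn3 in KOWTKO replicate 8 (20.8 CPM), Lgals3bp in KOWTKO replicate 4 (4.4 CPM) and Fgf10 in KOWTKO replicate 2 (14.8 CPM).

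For 60 named genes the log2 fold change at birth (KOWTKO over WT-TKO) differed from that at the older age (KOWT over WT-DKO) in edgeR's quasi-likelihood test over 49 libraries (adjusted p under 0.05). The values below are the first minus the second. The differences above 0 were 2.3 for Gm23935, 2.29 for Scand1, 2.15 for Ren1, 1.98 for Piezo2, 1.78 for Gm26917, 0.95 for Lipg, 0.94 for Sox11, 0.73 for Trim67, 0.72 for Emp1, 0.68 for Bok, 0.66 for Mki67, 0.64 for Foxo6, 0.63 for Dcx and 0.57 for Bsn. Smaller ones of that sign were 0.56 for Grin2a, 0.54 for Sesn3, 0.52 for Sox4, 0.48 for Ppp1r15a, 0.45 for Homer2, 0.38 for Ndufa11, 0.37 for Ptprz1, 0.36 for Uvrag, 0.36 for Cul3, 0.30 for Dnajc5, 0.26 for Egln1, 0.26 for Kcnd3, 0.25 for Sh3glb1, 0.25 for Fbxo21 and 0.21 for Psip1. The differences below 0 were -7.56 for Sh3gl3, -4.0 for Ptgds, -3.79 for Rpl3-ps1, -3.54 for Cldn11, -3.52 for Tpm3-rs7, -3.22 for Ccl28, -3.20 for Vcp-rs, -2.22 for Sult1a1, -1.76 for Fmod, -1.71 for Gm6768, -1.56 for Tmem267, -1.39 for Pdyn, -1.19 for Arrdc2, -1.19 for Ncf1 and -1.10 for Gpr17. Smaller ones of that sign were -1.04 for Btg2, -1.0 for Gapdh, -0.94 for Gm27032, -0.91 for Polh, -0.90 for Acrbp, -0.89 for C3ar1, -0.88 for Fcgr1, -0.82 for Lct, -0.73 for Mertk, -0.65 for H2-T22, -0.58 for Ramp2, -0.53 for Nnt, -0.53 for Bgn, -0.51 for Fgfr3, -0.47 for Ebp and -0.46 for Trem2.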

How the results depend on the processing

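The number of genes called was 3335 with RLE size factors, 2680 with no filter, 3830 with DESeq2, 3430 with voom, 3116 with only the 2 groups, 2618 without WT-TKO replicates 5 and 6, 3909 without the 6 libraries and 3869 with sex as a covariate and WT-TKO replicate 8 left out, against 3288. Leaving out that replicate without the covariate gave 3739. Leaving out 1 library gave 2508 (without WT-TKO replicate 1) to 3972 (without WT-TKO replicate 7) calls. The fit with the replicate number as a block called 3464. Of the genes named with all values, 15 lost their call with voom, 14 with the block and 7 with sex as a covariate and WT-TKO replicate 8 left out. Among them, with voom, were Rps13-ps1 (5.31), Rps15a-ps8 (4.96), Ptgds (-2.38), Sult1a1 (-0.82) and Gapdh (-0.93). Those with the block included Ptgds (-2.58), Cldn11 (-2.22) and Gapdh (-1.08), and those with sex as a covariate Ifih1 (-0.50). Same-numbered libraries correlated at -0.151 to 0.198 (median -0.00363) in their deviations from the group means, against a median of -0.00222 for other numbers. Of 8 KOWTKO libraries, 3 correlated best with their own number. These values do not settle whether the numbers pair the libraries. The labels give no litter, and the numbers were not taken as pairs. The age difference was called in 2030 genes with RLE size factors, 1329 with no filter, 2432 with DESeq2, 1845 with voom, 2392 with only the 4 groups and 2432 without the 6 libraries. The share called within 5 Mb of Sh3gl2 or Sh3gl3 ran from 21.4% to 34.8% when 1 library was left out, against 29.5%.

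Of 119 called genes named with all values, 83 kept their call in all 25 alternatives. Changes of sign were seen in 3 copies of other genes that were high in WT-TKO replicates 5 or 6. The log2 fold change of Rpl3-ps1 became 0.42 without the 6 libraries. That of Vcp-rs became 0.22 with DESeq2, 0.26 without WT-TKO replicates 5 and 6 and 0.21 without the 6 libraries. That of Rpsa-ps10 became 0.10 with DESeq2, 0.12 without WT-TKO replicate 5 (the other fits that left out 1 library reached -3.08), 0.16 without replicates 5 and 6 and 0.45 without the 6. In the fits that left libraries out the high libraries themselves are absent, and for DESeq2 the cause was not tested.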

Other observations

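The window at 65000001 to 70000000 of chromosome 13, which holds the zinc-finger cluster, had 22 of 44 tested genes called, 18 of them lower. Its share of 50% was the highest of 370 windows of 5 Mb, together with that of the window at 85000001 to 90000000 of chromosome 4, which holds Sh3gl2 (9 of 18).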
